A study of Mus musculus with 69 samples.

Results

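The 37 genes described here belong to the antioxidant defence of the cell and include the best known targets of NRF2. They were taken by gene symbol, matched to the Ensembl identifiers of the count tables, out of 56953 genes in all, and every one of the 37 passed the filter on low counts in each comparison. Nfe2l2 encodes NRF2, a transcription factor that its partner KEAP1 keeps low by ubiquitination. When electrophiles or oxidants modify KEAP1, NRF2 accumulates, binds antioxidant response elements in the DNA and raises genes for heme breakdown, glutathione and thioredoxin recycling, detoxification and NADPH supply. In vessels this defence is studied because high glucose, fatty acids and angiotensin II are all known to raise oxidant production. Other members, such as most superoxide dismutases, peroxiredoxins and glutathione peroxidases, are made at high levels without any stimulus.

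The study asked how metabolic and humoral stressors of obesity and type 2 diabetes act on vascular cells. RNA was sequenced from primary cells of male C57BL/6 mice: aortic vascular smooth muscle cells of wildtype animals (WT VSMC), the same cells with the EGF receptor gene Egfr deleted by Cre recombinase under the smooth muscle promoter SM22 (KO VSMC), and heart endothelial cells (EC), all labelled wildtype, selected with magnetic beads as CD31+ and CD45-. Cells of 1 animal and passage formed a set that was divided over 4 conditions for 24 h in serum-free medium: Control, HG + FFA (20 mM glucose with 100 µM free fatty acids by the labels, while the methods name oleate and palmitate at that concentration each), AII + NA (30 nM angiotensin II with 300 nM of a catecholamine that the sample labels call epinephrine and the study's methods norepinephrine) and ALL (both together). Each condition had 4 libraries in WT VSMC, 4 in KO VSMC except 3 for ALL, and 9 or 10 in EC, 69 in total. EC set 10 had no Control library and EC set 15 no AII + NA library. EC ranges and medians under a stressor therefore include set 10, while those in Control do not. The 10 EC sets came from 9 animals, and 2 of them (sets 15 and 16), though labelled wildtype, from animals that also gave KO VSMC. Sets 9 and 10 came from the animals of WT VSMC sets 1 and 2. The ages of the mice are not given in the sources used here.

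Library depth was 23626664 to 37801299 counts in WT VSMC, 23238979 to 35120866 in KO VSMC and 17166133 to 43240489 in EC. Levels are given in FPM, fragment counts scaled to library size. Egfr averaged 355 ± 88.0 FPM in WT VSMC (SD over 4 set means). KO VSMC stood at 0.959 to 1.84 FPM in sets 6, 7 and 8, but at 36.5 FPM in set 5. Smooth muscle markers summed to 345 to 2080 FPM in WT VSMC and 700 to 3480 FPM in KO VSMC, next to 8320 to 25600 and 3130 to 13700 FPM for fibroblast and mesenchyme markers. The contractile gene Myh11, a defining marker of mature smooth muscle, was low: WT VSMC sets averaged between 3.92 and 10.8 FPM, and KO VSMC sets 6.42, 7.62 and 2.75 FPM, with set 5 apart at 239 FPM. Endothelial markers summed to 287 to 6110 FPM in EC, against 222 to 383 FPM in WT VSMC and 118 to 282 FPM in KO VSMC. The lowest EC sums thus lay within the WT VSMC range. Smooth muscle markers summed to 196 to 3880 FPM in EC, and Acta2 averaged 3190 and 2820 FPM in EC sets 11 and 13. Egfr averaged 133, 154 and 138 FPM in EC sets 9, 11 and 13 and 2.61 to 43.8 FPM in the others. EC sets 9, 11 and 13 stood apart with set means of Pecam1, the gene of CD31, of only 25.7, 42.4 and 18.1 FPM, against 260 to 1590 FPM in the other sets, so EC results are also given without them. In such bulk libraries, fewer cells of a type and less RNA per cell cannot be told apart.

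Because the 37 genes include NRF2 targets, their promoters were searched for the core of the antioxidant response element, TGACNNNGC, on either strand. RefSeq promoters on build GRCm38.p6, which span 250 bases before to 50 bases after a start site, were listed for 31 of the 37 genes. The core was found in 10 of these 31 genes (32.3%), against 14% of all 27025 genes and 12.4% of all 32851 promoters in the table. Hmox1, Gclc, Gsr, Prdx6, Sod3 and Gsta4 had no entry. The 10 matches are shown because they place the element in view beside the expression values. The core is in capitals with 10 flanking bases on each side, read on the strand on which it matches.

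Txnrd1: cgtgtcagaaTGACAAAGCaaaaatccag
Mgst1: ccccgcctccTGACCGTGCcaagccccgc
Me1: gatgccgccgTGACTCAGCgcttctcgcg
Srxn1: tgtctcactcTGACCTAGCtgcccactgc
Gclm: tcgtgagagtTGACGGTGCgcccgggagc
Prdx1: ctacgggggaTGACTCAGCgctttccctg
G6pdx: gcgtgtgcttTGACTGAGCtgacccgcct
Pgd: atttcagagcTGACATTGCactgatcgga
Sod1: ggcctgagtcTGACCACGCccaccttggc
Nfe2l2: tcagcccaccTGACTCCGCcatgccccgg

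Among these, the windows of Me1 and Prdx1 also spell TGACTCA, the core of the AP-1 site, which overlaps the element. The Me1 core overlapped the start site (chr9:86695912-86695920, GRCm38.p6), the Mgst1 core was centred 52 bases before its start (chr6:138140471-138140479) and the Txnrd1 core 88 bases before the start of its entry (chr10:82859114-82859122). These 3 were the genes among the 10 that passed the test under a stressor, out of 7 such genes with a promoter entry. Of the 24 genes with an entry that did not pass, 7 held the core. The longer promoters of Txnrd1 and Mgst1 are given over the 250 bases before the start site, on the strand of the gene, with the core in capitals. It reads there as its reverse complement.

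Txnrd1: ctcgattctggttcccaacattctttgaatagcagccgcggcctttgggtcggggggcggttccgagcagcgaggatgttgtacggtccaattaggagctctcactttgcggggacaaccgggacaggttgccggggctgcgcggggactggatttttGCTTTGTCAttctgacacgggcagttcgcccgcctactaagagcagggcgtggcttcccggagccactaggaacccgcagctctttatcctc

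Mgst1: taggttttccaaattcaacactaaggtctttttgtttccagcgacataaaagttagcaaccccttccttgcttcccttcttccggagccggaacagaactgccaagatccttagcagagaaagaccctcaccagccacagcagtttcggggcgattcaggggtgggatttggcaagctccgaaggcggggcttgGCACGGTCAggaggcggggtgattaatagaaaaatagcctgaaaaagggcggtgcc

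The first of these lies at chr10:82858956-82859205 and the second at chr6:138140277-138140526, both on the plus strand of GRCm38.p6. A match in such a window is a description of the sequence and not evidence of NRF2 binding.

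**Figure D1:**
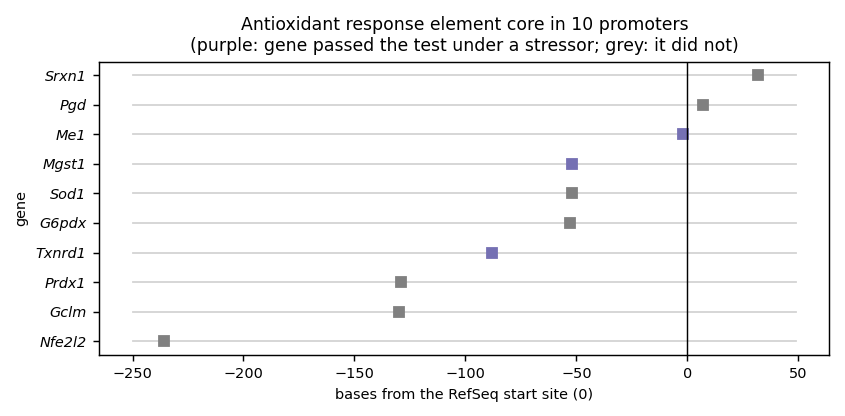
Position of the antioxidant response element core in the promoters of the 10 genes that hold it, in bases from the RefSeq start site at 0, with the window searched as a grey line. Purple squares mark genes that passed the test under a stressor and grey squares those that did not, and positions run from 236 bases before the start in Nfe2l2 to 32 bases after it in Srxn1.

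In Control cells the members covered a wide range of levels. Nfe2l2 stood at 142 ± 9.98 FPM in WT VSMC (SD, n = 4), 138 ± 10.4 in KO VSMC (n = 4) and 172 ± 50.7 in EC (n = 9), and Keap1 at 69.3 ± 2.64, 74.7 ± 7.57 and 62.6 ± 16.1 FPM. The ferritin chains, which store iron, gave the highest values: Fth1 reached 3570 ± 3720 FPM in EC, 5620 ± 1410 in KO VSMC and 6130 ± 655 in WT VSMC. Slc7a11, the cystine carrier that feeds glutathione synthesis, gave the lowest, with 1.85 ± 1.04, 1.26 ± 0.68 and 6.53 ± 10.0 FPM. FPM is not divided by transcript length, so these values rank no genes against each other.

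Among the inducible genes, the heme oxygenase gene Hmox1 had 158 ± 75.8 FPM in WT VSMC Control, 102 ± 32 in KO VSMC and 65.3 ± 40.3 in EC. WT VSMC medians were 15.1 FPM for the quinone reductase gene Nqo1, 47.7 and 42.5 for Gclc and Gclm, the subunits of the enzyme that starts glutathione synthesis, 30.4 for the glutathione reductase gene Gsr, 129 for Txnrd1, 150 for Txn1, 83 for the sulfiredoxin gene Srxn1 and 17.8 for Osgin1. The peroxiredoxins, thiol peroxidases, ran from 75.4 FPM for Prdx3 through 185 for Prdx6, 237 for Prdx5 and 291 for Prdx2 to 477 for Prdx1. Of the glutathione peroxidases, Gpx1 had a median of 18.8 FPM, Gpx3 67.6, Gpx4 376, Gpx7 64.6 and Gpx8 141. Gpx1 and Gpx3 are uncertain, since 85.3% and 85.0% of their exonic bases are shared with annotated antisense genes and the strand setting of the counting is not given. For Sod1 the share is 48.8%.

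The superoxide dismutases of cytosol, mitochondrion and extracellular space, Sod1, Sod2 and Sod3, had WT VSMC medians of 270, 88.2 and 641 FPM, and catalase (Cat) 126 FPM. The glutathione S-transferases Gsta4, Gstm1, Gstm2, Gstp1 and Mgst1 had 12.8, 760, 295, 445 and 243 FPM. The NADPH-supplying genes G6pdx, Pgd, Taldo1 and Me1 had 73.2, 180, 82.3 and 89.5 FPM, and the light chain of ferritin, Ftl1, 2390 FPM. Stretches nearly identical to other genes make the counts of Gclm, Prdx6, Sod2, Gpx4 and Gstp1 uncertain. Cat was the steadiest between WT VSMC sets, with a SD of 0.05 on the log2 scale, and Gpx3 the most variable.

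EC sets differed far more from each other than VSMC sets did in single genes. Gpx3, the secreted peroxidase, ran from 1.84 to 1090 FPM over the 9 EC Control libraries (SD 2.66 on the log2 scale). Gsta4 ran from 0.0539 to 19.6 FPM, with the lowest value in set 11. Sod3 ran from 75.6 to 1850 FPM, and Fth1 from 878 FPM to 12700 FPM, the latter again in set 11. Every stressor effect was estimated within sets, since the libraries of a set came from the same animal, passage and time.

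EC Control differed from WT VSMC Control in 4 of the 37 genes, and all 4 were lower in EC. Ftl1 was lower by 1.43 on the log2 scale (log2FC -1.43, SE 0.27, FDR 0.00684 in edgeR), with 387 to 1410 FPM in EC against 1850 to 2850 FPM in WT VSMC, so the groups did not overlap. Srxn1, which repairs overoxidised peroxiredoxins, had 28.1 to 60.4 FPM in EC against 69.9 to 109.2 in WT VSMC, again without overlap (log2FC -0.98, SE 0.21, FDR 0.0107). Pgd of the pentose phosphate pathway (log2FC -0.88, SE 0.23, FDR 0.0275) and Gpx8 of the endoplasmic reticulum (log2FC -0.78, SE 0.21, FDR 0.0286) overlapped between the groups. These 4 are 10.8% of the members, near the background of 12% of 17115 genes called, with 5.35% of the 17115 lower. Without EC sets 9, 11 and 13 the count was 15 (40.5% of members against 28.5% of all genes), and without sets 15 and 16 it was 2 (5.41% against 5.84%). The 15 included Nfe2l2 and Gclm, which were not lower in EC. In the EC Control libraries left, Nfe2l2 ran from 137.6 to 227.3 FPM and Gclm from 64.6 to 129.5 FPM. WT VSMC Control had 127 to 150 and 37.5 to 71.6 FPM, so both genes overlapped but lay mostly higher in EC. EC set 9 came from the same animal as WT VSMC set 1, which the fit did not take into account. All VSMC libraries carry batch label B1 and all EC libraries B2, so cell type and batch cannot be told apart.

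KO VSMC Control differed from WT VSMC Control in 0 of the 37 genes by edgeR, beside 0.00622% of all genes. DESeq2 also called 0 members, beside 2.13% of all genes. At an unadjusted p under 0.05 there were 3 members and 12.2% of all genes. These were Nqo1 (log2FC 0.82, SE 0.33), Gpx1 (log2FC 0.76, SE 0.33) and Srxn1 (log2FC -0.41, SE 0.18). Egfr itself did not pass in this fit (log2FC -5.15, SE 1.37, FDR 0.32 in edgeR), although its set means did not overlap between the groups.

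Across the 9 comparisons of a stressor with Control, 10 of the 37 genes passed the test in edgeR at least once, as the heat map of log2 fold changes shows. They were Hmox1, Gsr, Txnrd1, Gpx7, Sod3, Cat, Mgst1, Taldo1, Me1 and Fth1. The share of all genes passing at least once was not computed, so this pooled count is not read as a result about the members. Shares for each comparison are given below. AII + NA alone called none of the 37 in any cell type. The study's own DEG rule, which asks for FDR below 0.05 by edgeR and by DESeq2, a log2FC of 0.64 or more in either direction and a level of 3 FPM or more, left Hmox1 alone, under ALL in KO VSMC and in EC.

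**Figure D2:**
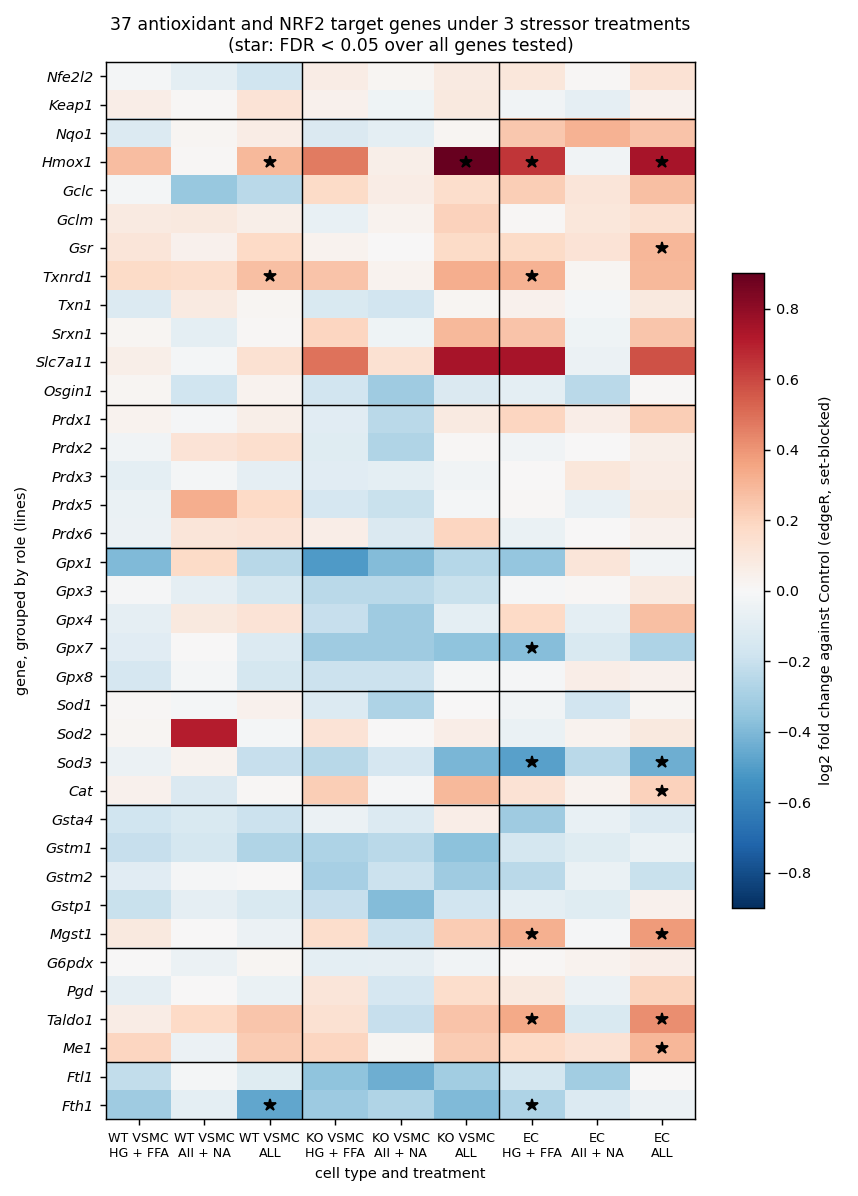
log2 fold change against Control of each of the 37 genes (rows, grouped by role) for 3 stressor treatments in 3 cell types (columns), with red above and blue below 0 and a star where FDR was below 0.05 over all genes tested. Hmox1 carries 4 stars, and no AII + NA column has one.

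Hmox1 encodes heme oxygenase 1, which splits heme into biliverdin, carbon monoxide and iron (chr8:75820241-75827217 in GRCm39, plus strand). In WT VSMC sets 1 to 4 it stood at 252, 111, 185 and 84.9 FPM in Control and at 331, 113, 280 and 95.4 FPM under ALL. In KO VSMC the Control values of sets 6, 7 and 8 were 103, 144 and 67.4 FPM and those under ALL 187, 273 and 125 FPM. All 3 KO sets moved by nearly the same factor, with log2 ratios from 0.86 to 0.92, whereas the WT sets ranged from 0.03 to 0.59.

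The rise under ALL was 0.29 on the log2 scale in WT VSMC (SE 0.09, FDR 0.0485, edgeR) and 0.91 in KO VSMC (SE 0.11, FDR 0.00307, edgeR). The WT call was lost when set 1 (log2FC 0.26, FDR 0.173), 3 (log2FC 0.20, FDR 0.266) or 4 (log2FC 0.34, FDR 0.118) was left out. The KO call was lost without set 6 (FDR 0.124) or 7 (FDR 0.13), while the log2FC stayed at 0.89 and 0.91. The difference between the 2 effects was -0.61 for WT minus KO (SE 0.14, unadjusted p 0.000238) and did not pass over all genes in edgeR (FDR 0.188), while DESeq2 gave FDR 0.026. Under HG + FFA all 4 WT sets and all 4 KO sets were above Control (log2FC 0.28, SE 0.09, FDR 0.195 and log2FC 0.47, SE 0.10, FDR 0.0681 in edgeR). DESeq2 called the KO value (FDR 0.00415) but not the WT one (FDR 0.0968). Under AII + NA the WT log2FC was 0.01 (SE 0.09) and the KO log2FC 0.05 (SE 0.10).

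In EC, Hmox1 ran from 22.2 to 156 FPM in Control (median 57.4, n = 9), 43.3 to 246 under HG + FFA (median 73.2, n = 10), 24.3 to 121 under AII + NA (median 62.8, n = 9) and 45.9 to 178 under ALL (median 97, n = 10). The groups overlapped, and the change shows within sets. It rose under HG + FFA in 8 of 9 sets with a Control (log2FC 0.64, SE 0.14, FDR 0.00807) and under ALL in 9 of 9 (log2FC 0.74, SE 0.14, FDR 0.00243), and both calls held without EC sets 9, 11 and 13. Under AII + NA it was higher in 3 of 8 sets (log2FC -0.03, SE 0.15).

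**Figure D3:**
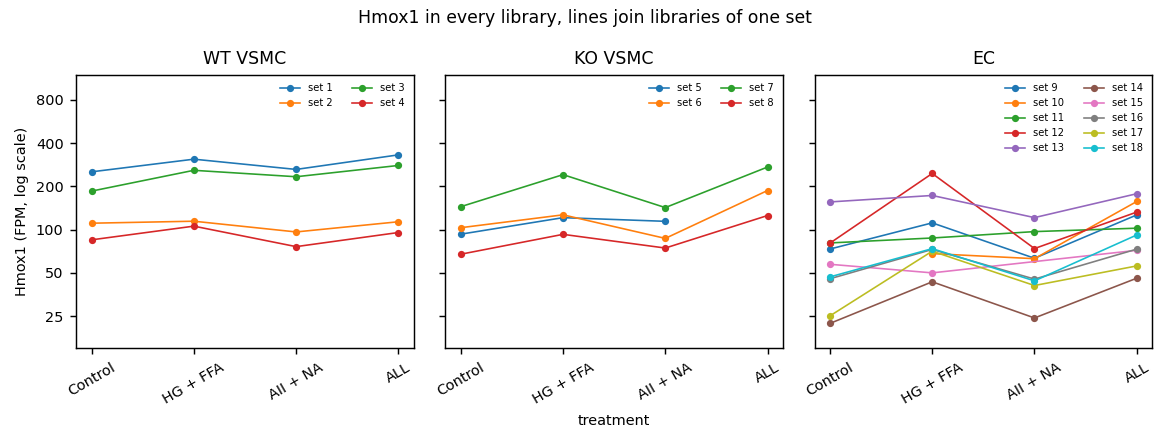
Hmox1 level in FPM on a log axis (y) in every library under the 4 conditions (x) for WT VSMC, KO VSMC and EC, with lines joining the libraries of a set. The 3 KO VSMC sets with an ALL library end at 125 to 273 FPM, and most EC lines peak under HG + FFA or ALL with AII + NA near Control.

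Txnrd1 encodes the cytosolic thioredoxin reductase, a selenoprotein that spends NADPH to keep thioredoxin reduced (chr10:82669785-82733546 in GRCm39, plus strand). WT VSMC sets had 182, 113, 145 and 106 FPM in Control and 242, 123, 182 and 123 FPM under ALL. All 4 were higher (log2FC 0.27, SE 0.07, FDR 0.0293), although the groups overlapped. In EC it ran from 113 to 179 FPM in Control (median 139) and from 133 to 392 FPM under HG + FFA (median 164). It was higher in 8 of 9 sets (log2FC 0.31, SE 0.09, FDR 0.0338), and set 12 gave by far the largest ratio (1.15 on the log2 scale). Under ALL in EC the log2FC was 0.29 (SE 0.09, FDR 0.0508 in edgeR and 0.0222 in DESeq2). The WT call did not hold without set 1, 3 or 4, where the log2FC was 0.22, 0.25 and 0.29. Without EC sets 9, 11 and 13 the EC log2FC was 0.38 and just missed the threshold (FDR 0.055). Over all alternatives run, the EC call of Txnrd1 under HG + FFA passed in 4 and did not pass in 5.

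Gsr, the reductase that returns oxidised glutathione to its active form, rose in EC under ALL (log2FC 0.30, SE 0.07, FDR 0.013). It ran from 20.7 to 53.2 FPM in Control (median 31.6) and from 31.4 to 52.4 FPM under ALL (median 40.2), and was higher in 8 of 9 sets. The call held without EC sets 9, 11 and 13. The other inducible genes did not pass in edgeR in any stressor comparison. Gclc went from a median of 62.8 FPM in EC Control (31.2 to 76.3) to 67.3 FPM under ALL (35.1 to 98.5), with 8 of 9 sets higher (log2FC 0.27, SE 0.08, FDR 0.0665 in edgeR and 0.035 in DESeq2). It had log2FC -0.34 in WT VSMC under AII + NA (SE 0.12, FDR 0.32). Srxn1 had a median of 41.3 FPM in EC Control (28.1 to 60.4) and 49.6 FPM under HG + FFA (35.5 to 103), higher in 7 of 9 sets (log2FC 0.26, SE 0.09, FDR 0.0934). Slc7a11 had a median of 3.45 FPM in EC Control (0.755 to 32.5) and 4.48 FPM under HG + FFA (0.925 to 114), higher in 8 of 9 sets (log2FC 0.74, SE 0.25, FDR 0.101). Under ALL in EC the log2FC was 0.25 for Srxn1 (SE 0.09, FDR 0.114) and 0.57 for Slc7a11 (SE 0.25, FDR 0.253). Nqo1, often used as the reference NRF2 target, lay between -0.13 and 0.31 in the 9 comparisons.

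For the regulators themselves, Nfe2l2 lay between -0.18 and 0.13 and Keap1 between -0.08 and 0.12, and neither passed in any comparison. Over the 10 inducible genes the median log2FC was 0.27 in EC under ALL with 10 of 10 above 0, 0.23 in EC under HG + FFA with 9 of 10, 0.19 in KO VSMC under ALL with 9 of 10 and 0.06 in WT VSMC under ALL with 9 of 10. Under AII + NA it was 0.00 in EC, 0.01 in KO VSMC and 0.02 in WT VSMC. All genes tested had medians between -0.01 and 0.01 in the same comparisons.

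NADPH is the electron donor for both the glutathione and the thioredoxin systems. In EC, all 4 genes of its supply had positive log2FC under HG + FFA (median 0.13) and ALL (median 0.25). Taldo1, the transaldolase of the pentose phosphate pathway (chr7:140972053-140982886 in GRCm39, plus strand), ran from 35.6 to 135 FPM in EC Control (median 79.8), 45.3 to 212 FPM under HG + FFA (median 111) and 53 to 223 FPM under ALL (median 120). It rose in 8 of 9 sets under HG + FFA (log2FC 0.34, SE 0.09, FDR 0.0221) and in 9 of 9 under ALL (log2FC 0.42, SE 0.09, FDR 0.00493). Without EC sets 9, 11 and 13 the HG + FFA call of Taldo1 was lost and its ALL call held. The same was so with the animal in place of the set as the block.

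Me1, the cytosolic malic enzyme (chr9:86462646-86578104 in GRCm39, minus strand), rose in EC under ALL in 9 of 9 sets (log2FC 0.30, SE 0.06, FDR 0.00302). Its medians were 125 FPM in Control and 176 FPM under ALL. It had log2FC 0.18 under HG + FFA (SE 0.06, FDR 0.0968) and 0.23 in WT VSMC under ALL (SE 0.07, FDR 0.0701), where DESeq2 called it (FDR 0.0333). Pgd, the next dehydrogenase of the pentose phosphate pathway, had a median of 89.2 FPM in EC Control (63.5 to 137) and 111 FPM under ALL (76.2 to 149), higher in 8 of 9 sets (log2FC 0.20, SE 0.07, FDR 0.118), and G6pdx, the entry enzyme of the pathway, did not pass in any comparison. Antisense genes share 35.5% of the exonic bases of Me1. The EC call of Me1 under ALL held without EC sets 9, 11 and 13.

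Mgst1, a membrane-bound glutathione transferase and peroxidase (chr6:138117314-138133774 in GRCm39, plus strand), rose in EC under both treatments with fatty acids. It ran from 121 to 224 FPM in Control (median 162), 147 to 283 FPM under HG + FFA (median 197) and 162 to 327 FPM under ALL (median 209). The log2FC was 0.32 with 9 of 9 sets higher under HG + FFA (SE 0.07, FDR 0.00831) and 0.38 with 8 of 9 under ALL (SE 0.07, FDR 0.00216). Its WT VSMC values under ALL had log2FC -0.05 (SE 0.09). Both EC calls held without EC sets 9, 11 and 13. The cytosolic transferases Gsta4, Gstm1, Gstm2 and Gstp1 did not pass in edgeR. In KO VSMC sets 6, 7 and 8, Gstm1 had 723.8, 1010 and 765.5 FPM in Control and 622.7, 714.6 and 515.8 FPM under ALL (log2FC -0.37, SE 0.13, FDR 0.324). Gstm2 had a median of 208 FPM in EC Control (132 to 301) and 176 FPM under HG + FFA (115 to 305). It was higher in 3 of 9 sets (log2FC -0.24, SE 0.07, FDR 0.0693 in edgeR and 0.0338 in DESeq2).

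Catalase, which breaks down hydrogen peroxide in peroxisomes, rose slightly in EC under ALL (log2FC 0.21, SE 0.05, FDR 0.0259). Its medians were 132 FPM in Control and 159 FPM under ALL, with 8 of 9 sets higher. In KO VSMC sets 6, 7 and 8 Cat stood at 126, 147 and 108.6 FPM in Control and 148, 204 and 136 FPM under ALL (log2FC 0.29, SE 0.12, FDR 0.4). Without EC sets 9, 11 and 13 the EC value was 0.20 (SE 0.06) and no longer passed (FDR 0.103). Over all alternatives run, the EC call of Cat passed in 2 and did not pass in 7.

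Sod3, the superoxide dismutase of the extracellular matrix, fell in EC under HG + FFA (log2FC -0.49, SE 0.12, FDR 0.0196) and under ALL (log2FC -0.44, SE 0.12, FDR 0.0459). Its EC medians were 343 FPM in Control, 308 under HG + FFA and 280 under ALL. The direction was not shared by all sets: 2 of 9 were higher under HG + FFA and 3 of 9 under ALL, with ratios from -1.27 to 0.34 in the latter. Without sets 9, 11 and 13 the first call remained (log2FC -0.51, FDR 0.0314) and the second did not (log2FC -0.44, FDR 0.0722). With the animal in place of the set as the block, neither passed (FDR 0.668 and 0.745).

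Sod2 had the highest log2FC of any member in WT VSMC, 0.71 under AII + NA (SE 0.32, FDR 0.517), a value singled out after it was seen. It rests on set 2, which went from 89.7 to 292 FPM. The other sets went from 192 to 195, from 86.8 to 99.5 and from 76.2 to 99.8 FPM.

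Gpx7, a thiol peroxidase of the endoplasmic reticulum, fell in EC under HG + FFA in 9 of 9 sets (log2FC -0.38, SE 0.08, FDR 0.00618). It ran from 16.7 to 63.6 FPM in Control (median 33.4) and from 10.9 to 52.6 FPM under HG + FFA (median 23.4). Under ALL it was lower in 9 of 9 sets as well, with log2FC -0.28 (SE 0.08, FDR 0.0622 in edgeR and 0.0361 in DESeq2). The HG + FFA call of Gpx7 held without EC sets 9, 11 and 13 (log2FC -0.43, FDR 0.0354 in edgeR). With the animal in place of the set as the block, Gpx7 did not pass under HG + FFA (FDR 0.194 in edgeR). In KO VSMC its log2FC was -0.32, -0.32 and -0.36 under the 3 treatments, none of which passed. Gpx4, which protects membranes from lipid peroxides, had a median of 335 FPM in EC Control (194 to 508) and 430 FPM under ALL (251 to 533), higher in 7 of 9 sets (log2FC 0.27, SE 0.10, FDR 0.136), and 1 near-identical pseudogene drew counts equal to 20.1% of its own. Gpx1, the cytosolic peroxidase, had 25.2, 27.4, 51.0 and 45.6 FPM in KO VSMC sets 5 to 8 in Control and 32.3, 22.0, 26.8 and 21.2 FPM under HG + FFA. It was lower in sets 6, 7 and 8 but not in set 5 (log2FC -0.51, SE 0.18, FDR 0.3).

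The 5 peroxiredoxins did not pass in edgeR or DESeq2 in any stressor comparison. Prdx5, found in mitochondria, peroxisomes and cytosol, had 388.2, 231.5, 241.6 and 179.5 FPM in WT VSMC Control and 412.1, 290.0, 307.6 and 262.3 FPM under AII + NA. All 4 sets were higher, the largest log2FC of the family in a stressor comparison (0.33, SE 0.12, FDR 0.334). In EC under ALL all 5 lay above 0 with a median of 0.07, and in KO VSMC under AII + NA all 5 lay below 0 with a median of -0.20.

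Fth1 encodes the heavy chain of ferritin, which oxidises and stores iron (chr19:9957911-9962462 in GRCm39, plus strand). In WT VSMC sets 1 to 4 it had 6852, 5804, 6483 and 5399 FPM in Control and 4199, 4341, 4980 and 4135 FPM under ALL, so the groups did not overlap. The fall by 0.47 on the log2 scale (SE 0.09, FDR 0.00674) was past the threshold in edgeR without set 2, 3 or 4, but not without set 1 (FDR 0.0581). Under HG + FFA all 4 sets were lower, at 5439, 4064, 5196 and 4972 FPM (log2FC -0.32, SE 0.09, FDR 0.166 in edgeR and 0.0199 in DESeq2). KO VSMC had log2FC -0.40 under ALL (SE 0.16, FDR 0.384).

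In EC, Fth1 fell under HG + FFA in 9 of 9 sets (log2FC -0.28, SE 0.07, FDR 0.0159), from a median of 2210 to 2020 FPM, but under ALL its log2FC was -0.05 (SE 0.07) with 4 of 9 sets higher. ALL against HG + FFA gave 0.23 (SE 0.07, unadjusted p 0.0012, FDR 0.964). Without sets 9, 11 and 13 the fall under HG + FFA was by 0.25 (FDR 0.117). Over all alternatives run, this call passed in 4 and did not pass in 5. Ftl1 did not pass in any stressor comparison. In EC its median was 868 FPM in Control (387 to 1410) and 746 FPM under AII + NA (404 to 965), with 1 of 8 sets higher (log2FC -0.31, SE 0.11, FDR 0.719), and in KO VSMC under AII + NA its log2FC was -0.44 (SE 0.17, FDR 0.509). An antisense gene shares 41.5% of the exonic bases of Fth1.

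**Figure D4:**
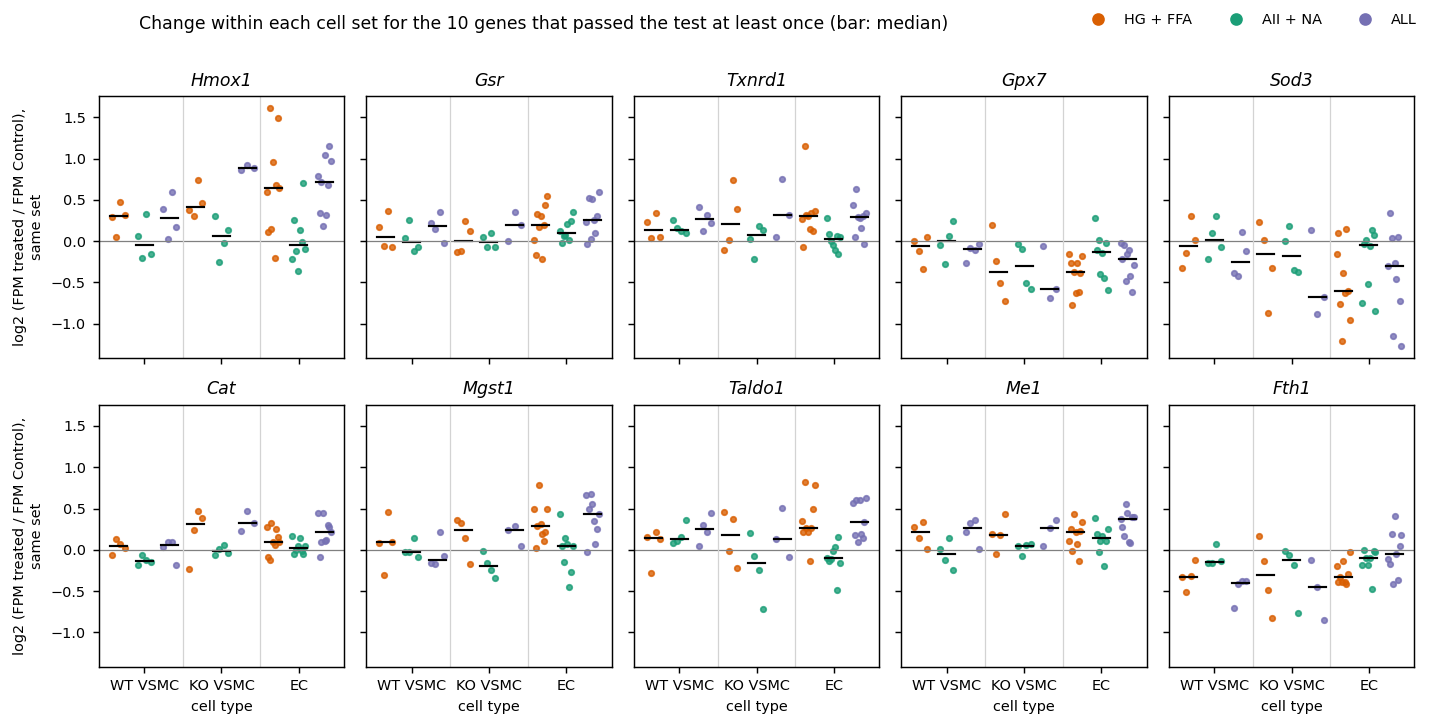
log2 ratio of FPM between treated and Control library of the same set (y) for the 10 genes that passed the test at least once, by cell type (x) and treatment (colour), with 1 point per set and a bar at the median. Hmox1 ratios under ALL lie above 0 in every set, those of Gpx7 in EC lie below 0 under HG + FFA and ALL, and those of Sod3 in EC fall on both sides.

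Counts over the 37 genes are read beside the share of all genes called. Those shares were not matched to the levels of the members, and the members were chosen with earlier results of these data known. In WT VSMC under HG + FFA 0 members passed in edgeR (0.538% of all genes) and 1 in DESeq2 (1.74%), with 5 members at an unadjusted p under 0.05 (11.2%). Under AII + NA 0 passed in either tool (0.0532% of all genes in edgeR), with 4 members at an unadjusted p under 0.05 (9.42%). Under ALL 3 members passed, 8.11% against 7.45% of all genes, of which 2 were higher (3.92% of all genes) and 1 lower (3.53%). The share of members was thus near that of all genes.

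In KO VSMC under HG + FFA 0 members passed in edgeR (0.439%) and 1 in DESeq2 (1.40%), with 8 at an unadjusted p under 0.05 (12.4%). Without set 5 the edgeR count was 7 (18.9%, against 8.57% of all genes in that fit): Hmox1, Cat, Fth1, Gpx1, Gpx7, Gstm1 and Gstm2. Leaving out set 6, 7 or 8 instead gave 0 each time (0.0286%, 0% and 0.215% of all genes). Set 5 stood apart in both Egfr and Myh11, and the reason for the higher count was not tested. Under AII + NA 0 passed in either tool (0% of all genes in edgeR and 0.0627% in DESeq2). At an unadjusted p under 0.05 there were 7 (9.76%). Under ALL Hmox1 was the only member called, against 0.399% of all genes, 0.279% higher and 0.120% lower.

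In EC under HG + FFA 7 members passed, 18.9% against 3.53% of all genes. Of them 4 were higher (Mgst1, Taldo1, Txnrd1 and Hmox1, against 1.64% of all genes) and 3 lower (Gpx7, Sod3 and Fth1, against 1.88%). Under ALL 7 passed, 18.9% against 3.18%, with 6 higher (Hmox1, Gsr, Cat, Mgst1, Taldo1 and Me1, against 1.14%) and 1 lower (Sod3, against 2.04%). Without sets 9, 11 and 13 the counts were 4 and 5, beside 2.58% and 1.91% of all genes. With the animal in place of the set as the block, which joins sets 17 and 18, the HG + FFA count was 2 (Hmox1 and Mgst1, beside 0.916% of all genes), and without sets 15 and 16 it was 4 (beside 1.47%). Under AII + NA 0 passed in either tool (0% of all genes in edgeR and 0% in DESeq2). At an unadjusted p under 0.05 there were 3 (6.67%). HG + FFA and ALL share their Control libraries, so they are not independent of each other.

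ALL was also compared with HG + FFA, which asks what AII + NA added. It called 0 members in edgeR and 0 in DESeq2 for each cell type. The shares of all genes were 0.0414% by edgeR for WT VSMC, 0% for KO VSMC and 0% for EC. By DESeq2 they were 1.33%, 0% and 0%. At an unadjusted p under 0.05 there were 2 members in WT VSMC (10.8% of all genes), 2 in KO VSMC (2.91%) and 4 in EC (5.14%). Hmox1 in KO VSMC was 1 of these (log2FC 0.44, SE 0.11, FDR 0.999). The departure from additivity in WT VSMC, which is the ALL effect less the sum of both single effects, called 0 members and 0% of all genes in edgeR and 0 members in DESeq2, and 0 members at an unadjusted p under 0.05 (1.72% of all genes).

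The WT VSMC effect minus the KO VSMC effect called 0 members in edgeR under HG + FFA (0% of all genes), AII + NA (0%) and ALL (0.0109%). At an unadjusted p under 0.05 there were 0 members under HG + FFA (3.08%), 6 under AII + NA (11.9%) and 4 under ALL (7.42%). DESeq2 called 0, 0 and 1 member, the last being Hmox1 (0.316% of all genes by DESeq2). The 6 under AII + NA were Gclc, Prdx2, Prdx5, Gpx1, Gpx4 and Taldo1, and 5 of them had a positive difference.

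Over all 37 genes the median log2FC under AII + NA was -0.15 in KO VSMC, with 8 of 37 above 0, and -0.01 in WT VSMC, with 16 of 37, while all genes had medians of 0.01 and -0.01. Ribosomal protein genes moved along: all 80 tested lay below 0 in KO VSMC under AII + NA (median -0.35), 79 of 80 under HG + FFA (median -0.26) and 74 of 80 under ALL (median -0.17). In WT VSMC their medians were -0.12, 0.02 and -0.01 under HG + FFA, AII + NA and ALL. Their part in the member values was not tested.

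In EC, markers of other cells moved too. Under HG + FFA the collagen genes Col1a1 (log2FC -0.73, SE 0.19, FDR 0.02) and Col1a2 (log2FC -0.71, SE 0.16, FDR 0.00794) fell, 5 of the 6 fibroblast and mesenchyme markers lay below 0, and the endothelial Emcn rose (log2FC 0.37, SE 0.08, FDR 0.00614). Under ALL Col1a2 fell (log2FC -0.64, SE 0.16, FDR 0.0186) and Emcn rose (log2FC 0.40, SE 0.08, FDR 0.00339). The endothelial list held 10 markers, and only Emcn of them is described here. A shift of that list as a whole is therefore not read from these values. The summed fibroblast markers ran from 855 to 24100 FPM over the EC libraries. Whether these shifts bear on Sod3, Gpx7 and Fth1 was not tested.

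As a check on the exposure, 6 genes known to be induced by fatty acids through PPAR receptors were examined in the same libraries. In EC 5 of 6 rose under HG + FFA, among them Angptl4 (log2FC 3.22, SE 0.31, FDR 2.25e-08). In KO VSMC 5 of 6 rose under ALL and in WT VSMC 4 of 6, with Pdk4 at log2FC 1.74 (SE 0.21, FDR 0.00271) and 1.62 (SE 0.23, FDR 0.001). The largest log2FC of a called antioxidant gene in any of these comparisons was the 0.91 of Hmox1 in KO VSMC.

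Genes next to the 37 in the same pathways are read beside the shares of all genes called in the same comparisons. Of the called ones, at most 3 per list and cell type are named, those with the largest log2FC in either direction. Of 12 or 13 NRF2 partners and regulators tested, 0 passed in any of the 9 comparisons in edgeR. Of 22 further NRF2-linked detoxification genes, Ces2g, a carboxylesterase, fell in EC under HG + FFA (log2FC -0.41, SE 0.08, FDR 0.00254) and ALL (log2FC -0.45, SE 0.08, FDR 0.00105) and in WT VSMC under ALL (log2FC -0.74, SE 0.12, FDR 0.0017). Akr1c14 (log2FC -0.63, SE 0.14, FDR 0.0112) and Ugdh (log2FC -0.23, SE 0.07, FDR 0.0454) fell in WT VSMC under ALL. Idh1, the cytosolic NADPH-forming isocitrate dehydrogenase, rose in EC under ALL (log2FC 0.28, SE 0.07, FDR 0.0152).

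Among 21 further genes of the thioredoxin and glutaredoxin system, the selenoprotein genes Selenow (log2FC -0.54, SE 0.08, FDR 0.000141) and Selenos (log2FC -0.41, SE 0.07, FDR 0.000561) fell in EC under HG + FFA and again under ALL, where Selenop, a secreted selenium carrier, rose (log2FC 0.39, SE 0.11, FDR 0.0328). In WT VSMC under ALL the mitochondrial reductase gene Txnrd2 rose (log2FC 0.38, SE 0.10, FDR 0.0381) while Msrb2 (log2FC -0.38, SE 0.09, FDR 0.0192) and Sesn1 (log2FC -0.32, SE 0.08, FDR 0.0233) fell. Of 23 genes of glutathione synthesis, turnover and transfer, Ggt5 (log2FC -0.70, SE 0.15, FDR 0.0105), Gstk1 (log2FC -0.46, SE 0.13, FDR 0.0472) and Gstt3 (log2FC -0.26, SE 0.07, FDR 0.0436) fell in WT VSMC under ALL, and Gstt1 (log2FC -0.40, SE 0.11, FDR 0.0304) and Gstt3 (log2FC -0.29, SE 0.08, FDR 0.0443) in EC under HG + FFA. Gstt1 fell in EC under ALL as well.

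Of 15 genes for oxidant sources and mitochondrial uncoupling, 12 were tested and 3 rose in EC under HG + FFA, where 1.64% of all genes did. They were the uncoupling protein gene Ucp2 (log2FC 2.00, SE 0.35, FDR 0.000499), the monoamine oxidase gene Maoa (log2FC 0.55, SE 0.10, FDR 0.00175) and the NADPH oxidase gene Nox4 (log2FC 0.32, SE 0.09, FDR 0.0477). Ucp2 also rose in EC under ALL (log2FC 1.95, SE 0.35, FDR 0.000799) and in KO VSMC under ALL (log2FC 2.11, SE 0.41, FDR 0.0364), and Maoa in EC under ALL (log2FC 0.47, SE 0.10, FDR 0.00854).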

How the data were processed

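Poly(A) RNA of 69 libraries was sequenced. Per the labels and the study's methods, the authors aligned reads to mm39 with HISAT2 2.1.0 and deposited raw counts per gene from featureCounts, which also counted multi-mapping reads. The strand setting is not given in the sources used here. Of 56953 identifiers, 56310 had a symbol in GENCODE M39, and the others held 0.0241% of counts.

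Each cell type was fitted with edgeR 4.0.16 (filterByExpr, TMM, quasi-likelihood test) with condition and set as terms, since libraries of a set came from the same animal, passage and time. Deviations from condition means correlated within sets (mean r 0.858 in EC, 0.804 in KO VSMC and 0.818 in WT VSMC). FDR is the Benjamini-Hochberg value over all genes tested, and 0.05 was the threshold. SE is the log2FC divided by the square root of F. FPM came from 1 TMM scaling over all libraries, with 0.1 FPM added before ratios. DESeq2 1.42.0, other filters, blocks and left-out sets were alternatives. Scripts were tested on simulated data. No 2 libraries of a condition agreed within sampling noise (smallest chi-square per gene 46.2).

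The members and lists were chosen with earlier results of these data known. Named in full were members called in a stressor comparison and those with the smallest p, 20 in all. Of the other lists, at most the 3 called genes with the largest absolute log2FC per list and cell type were named. Promoters were RefSeq's (GRCm38.p6), gene positions GENCODE's (GRCm39), and copies were genes 97% identical over 150 bases by BLAST 2.17.0. Sets spread far beyond counting noise. In the fits with the set as a term, the p-values measure how far changes within sets differed from set to set. In the comparisons of Control libraries they measure the spread between sets.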

Additional observations from a re-analysis of the deposited data

Results flagged for a closer look

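In 47 groups of 4 to 10 values examined, 3 held a sample far from the others, where chance gives about 1 in 20. Txnrd1 in EC under HG + FFA had its highest log2 ratio in set 12, at 1.15 against -0.07 to 0.36 in the others (gap over range 0.648, n = 9). Fth1 in WT VSMC under ALL had its lowest log2 ratio in set 1, at -0.71 against -0.42 to -0.38 (gap over range 0.879, n = 4). Taldo1 in EC Control had its lowest log2 level in set 9, at 5.16 against 6.11 to 7.08 (gap over range 0.494, n = 9).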

How the results depend on the processing

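Counts are of the 37 genes at FDR below 0.05, and none of the values recomputed changed direction. Percentages are shares of all genes called in the same fit. Without the replicate block, that is without the pairing by set, 0 passed in WT VSMC under ALL (0%) and 0 in KO VSMC under ALL (0%). In EC 0 passed under HG + FFA (0.0117%) and 0 under ALL (0.0117%). With the block the counts were 3, 1, 7 and 7. With no filter on low counts, 2 passed in WT VSMC under HG + FFA (1.71%), 3 under AII + NA (1.86%) and 1 for additivity (0.208%). KO VSMC then had 4 under HG + FFA (1.85%), 2 under AII + NA (0.828%) and 3 under ALL (1.43%). EC had 1 under AII + NA (0.12%). The WT minus KO effects had 3 for AII + NA (0.98%) and 1 for ALL (0.905%). DESeq2 gave 1 in WT VSMC (1.74%) and 1 in KO VSMC (1.4%) under HG + FFA and 1 for the WT minus KO effect of ALL (0.316%). Fitting only the 2 groups compared gave 1 in WT VSMC under HG + FFA (1.44%), 1 under ALL (5.67%), and 4 in EC under ALL (0.985%). The study's DEG rule left 0 in WT VSMC under ALL, 0 in EC under HG + FFA and 1 in EC under ALL. With the animal as the block, 2 passed in EC under HG + FFA (0.916%). Without EC sets 15 and 16 there were 4 in EC under HG + FFA (1.47%) and 2 for EC against WT VSMC (5.84%). Without EC sets 9, 11 and 13, an alternative chosen after seeing the data, there were 4 (2.58%) and 15 (28.5%). Leaving out 1 set gave 0 to 3 in WT VSMC under ALL (2.89% to 5.74%). KO VSMC had 0 to 7 under HG + FFA (0% to 8.57%), with 7 without set 5, and 0 to 1 under ALL (0% to 1.04%). The causes were not tested.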
